A study of Mus musculus with 2 samples.

Results

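Mir143 and Mir145a are neighbouring microRNA genes on mouse chromosome 18, and both were taken by name from the 2202 microRNA genes counted in heart, so that 2 of 2202 genes are described here. Each count table was mapped to gene symbols through the GENCODE M21 annotation, and the reads on the gene's own strand were scaled to counts per 1000000 (CPM) of all such reads in that library. The rule uses no measured value, although the pair was picked with earlier results of these data known. The data were short RNA libraries made from total RNA of whole hearts of male B6CASTF1/J mice aged 36 days by the age field, an F1 hybrid of inbred strains, with no treatment labelled. A free-text field gives the same age number with months as its unit. The 2 libraries, called library 1 and library 2 after their replicate numbers, form 1 group and come from differently numbered males that carry the same donor record. All means are therefore given with the SD over n = 2 libraries, which may be a technical spread, and no contrast between conditions was possible.

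MicroRNAs are short RNAs cut from hairpin precursors that guide a silencing complex to messenger RNAs with matching sites. In mice, miR-143 and miR-145 are made from a shared primary transcript that is abundant in smooth muscle, where serum response factor and its cofactor myocardin drive it, and they are known for keeping vascular smooth muscle cells in their contractile state. Transcription factors such as Klf4, Klf5 and Elk1 are among their known targets. In the heart, the main bearers of smooth muscle are the coronary arteries and the roots of the great vessels, and pericytes and fibroblasts can also make these microRNAs. Messenger RNAs of smooth muscle were not measured in these libraries, and the microRNA tables hold no smooth muscle marker that is independent of the pair, so the cell type in the name of the cluster could not be checked. In whole tissue, fewer cells of a type and less RNA per cell cannot be told apart.

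Both hairpins lie on the minus strand in the mm10 assembly. Mir143 (ENSMUSG00000065445.3) spans chromosome 18 from 61649196 to 61649258, a hairpin of 63 nt. Mir145a (ENSMUSG00000065592.2) lies downstream of it from 61647825 to 61647894, a hairpin of 70 nt, with 1301 bases between them. Neither overlaps an annotated exon or intron of another gene. Carmn, a long noncoding RNA known from cardiac and smooth muscle cells, lies upstream on the same strand, and its annotated 3′ end is 366 bases from Mir143 in transcript Carmn-202 and 1715 bases from it in Carmn-201. Bvht, a long noncoding RNA known in mouse from the commitment of cells to the cardiovascular lineage, lies on the opposite strand and ends 352 bases beyond Mir145a. The next annotated microRNA gene on the chromosome is 249899 bases away.

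**Figure D1:**
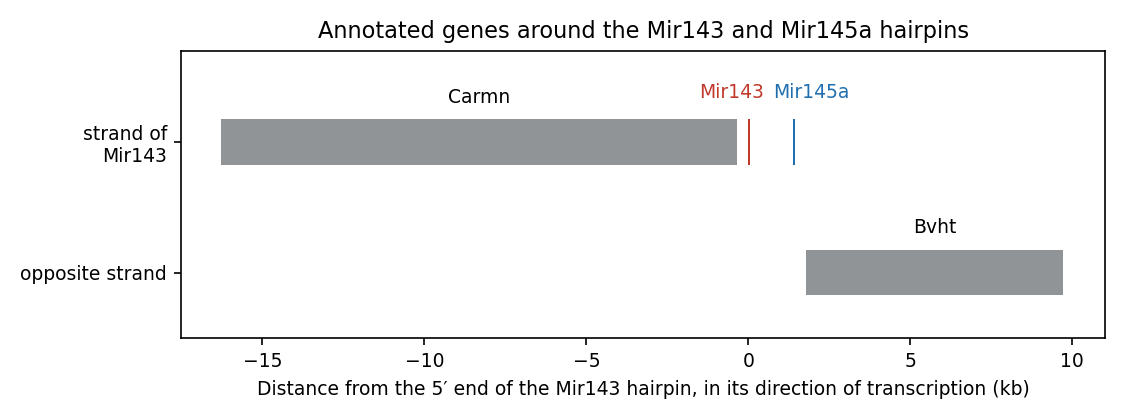
Annotated genes around the pair, drawn along the direction in which Mir143 is transcribed, with distance in kb from the 5′ end of its hairpin on the horizontal axis and the strand on the vertical axis. Mir143 and Mir145a follow Carmn on the same strand, and Bvht lies beyond Mir145a on the other strand.

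Among reads placed on a single gene, Mir143 was one of the most abundant microRNA genes of the heart, and Mir145a, although its close neighbour, was counted far less often. Mir143 held 76520 sense reads in library 1 and 69427 in library 2. Scaled, this was 38272 CPM in library 1 (95% Clopper-Pearson bounds 38007 and 38539) and 37276 CPM in library 2 (bounds 37004 and 37549), a mean of 37774 ± 705 CPM (SD, n = 2). The 2 libraries differed by little for Mir143, which stood at rank 10 in each of them and at rank 11 by mean level. Genes with near copies, such as Mir1a and Mir133a of heart muscle, can be undercounted, so these ranks hold for counted reads only.

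Mir145a held 2488 sense reads in library 1 and 2648 in library 2. Its level was 1244 CPM in library 1 (bounds 1196 and 1294) and 1422 CPM in library 2 (bounds 1368 and 1477), a mean of 1333 ± 125 CPM. Library 2 was the higher, and the gene moved from rank 62 to rank 55, with rank 59 by mean level. There were 69 genes averaging 1000 CPM or more, and Mir145a lay near the lower end of that abundant class. These bounds cover counting error only, and PCR reads without molecular identifiers are not independent molecules.

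No antisense read was counted at either in either library, and no annotated microRNA gene lies opposite them. Neither hairpin has 22 consecutive nt, roughly a mature microRNA, in common with another annotated hairpin, which matters because 41.5% of reads in library 1 and 42.9% in library 2 mapped to several places and were given to no gene. For Mir143 the longest stretch shared with any other annotated hairpin was 11 nt. For Mir145a it was 17 nt, shared with its paralog Mir145b (chromosome 18, 69022199 to 69022273, minus strand). Mir145b had 0 reads in both libraries, which at 3 counts is a limit of 1.5 CPM for library 1 and 1.61 for library 2. A read shorter than a full mature miR-145a that fell within the shared stretch could map to both loci, and such reads were not traced. Each gene level sums the whole hairpin, so the mature arms were not separated.

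Scaled to assigned totals, the spread of Mir143 between the libraries was small beside most abundant genes. Its SD was 1.87% of its mean, while that share ran from 0.204% to 59.9% over the 20 most abundant genes with a median of 7.54%, and 3 of the 20 had a smaller one. Those 3 were Mir23b, Mir191 and Mir30a, named after their values were seen. The SD of Mir145a was 9.41% of its mean. Of the 141 genes averaging at least 100 CPM, 10 had a smaller relative SD than Mir143 and 45 a smaller one than Mir145a. This depended on the scaling. With TMM factors, which use a trimmed mean over genes as the reference, the relative SD was 7.44% for Mir143 and 18.6% for Mir145a, and of the 141 genes 42 and 86 had a smaller one. Of the 20 most abundant genes, 6 then had a smaller one than Mir143, against a median of 10.7%.

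In the order of levels, 8 genes lay above Mir143 in both libraries. The library values of 2 more genes, Mir22 (24473 and 60488 CPM) and Mir23a (51422 and 32990 CPM), spanned those of Mir143, so their order against it was not settled by these libraries. Mir99a, just below it by mean, stood at 29952 and 33416 CPM and did not overlap it. For Mir145a the order was much less certain, since the values of 18 genes overlapped its range, among them Mirlet7c-2 just above it by mean (1241 and 1496 CPM) and Mir10a just below it (1377 and 1272 CPM).

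Likeness to each member was measured as the distance between log2(CPM + 1) values over the 2 libraries, which with so few samples mainly reflects the level. The 5 genes nearest to Mir143 were Mir139 (distance 0.35), Mir99a (0.39), Mir23a (0.46), Mirlet7d (0.58) and Mirlet7b (0.64). Mir139, carried in the phosphodiesterase gene Pde2a, stood at 46401 CPM in library 1 and 42992 in library 2. The 5 nearest to Mir145a were Mirlet7c-2 (0.07), Mir455 (0.17), Mir150 (0.20), Mir10a (0.22) and Mir676 (0.24). Mirlet7c-2, whose hairpin shares 22 nt with another locus, had nearly the values of Mir145a in each library, whereas Mir455 (1313 and 1278 CPM) was nearly level. Mir143 and Mir145a were not among each other's nearest genes.

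**Figure D2:**
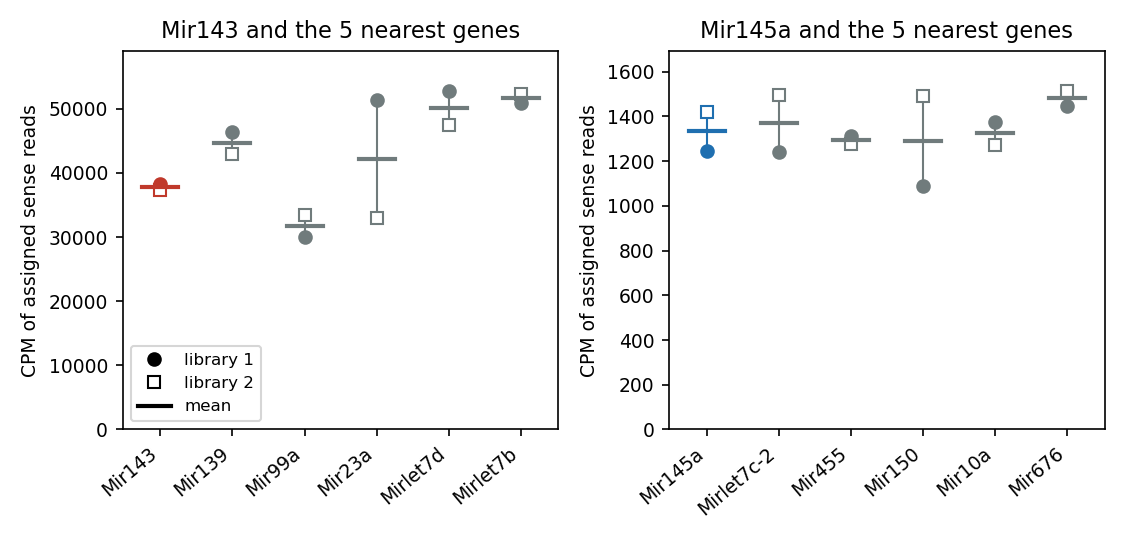
CPM of assigned sense reads (vertical axes, from 0) for Mir143 with its 5 nearest genes on the left and Mir145a with its 5 nearest on the right, with library 1 as filled circles, library 2 as open squares and the mean as a bar. The points of Mir143 nearly coincide at 38272 and 37276 CPM, while those of Mir145a, at 1244 and 1422 CPM, lie within the span of Mir150.

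Together the pair took 3.95% of assigned reads in library 1 (bounds 3.92 and 3.98) and 3.87% in library 2 (bounds 3.84 and 3.90), a mean of 3.91% ± 0.0579 (SD, n = 2). Mir143 gave 96.9% of the pair's reads in library 1 and 96.3% in library 2. On chromosome 18, 57 microRNA genes are annotated and 16 had a count. The pair held 22.5% of the reads assigned to that chromosome in library 1 and 20.5% in library 2.

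Although the hairpins are known to come from a shared transcript, their counted reads were far from equal. Mir143 exceeded Mir145a 30.8-fold in library 1 (exact binomial 95% interval 29.6 to 32.0) and 26.2-fold in library 2 (25.2 to 27.3). On the log2 scale the ratio was 4.94 and 4.71, a mean of 4.83 ± 0.16 (SD, n = 2). Per base of hairpin the ratios were 34.2 and 29.1, so dividing by length did not make the difference smaller. Both intervals cover counting error only, and on that alone they exclude a ratio of 1. An exact two-sided sign-flip test reaches no p below 0.5 with 2 samples. Whether the 2 sequences were captured equally well in the libraries was not tested. The ratio does not depend on how libraries are scaled.

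From library 1 to library 2 the log2 ratio decreased by 0.23, and the intervals of the 2 libraries did not overlap. Fisher's exact test on the counts gave a two-sided p of 1.95e-08. This test compares 2 libraries on read counts, leaves out the spread between samples and says nothing of conditions.

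Other neighbouring microRNA genes were used to place this imbalance. Pairs of genes on the same strand within 10 kb of each other, each averaging at least 10 CPM, numbered 146. The ratio of the higher to the lower mean had a median of 3.96 over these pairs, and for Mir143 and Mir145a it was 28.3. A larger imbalance was found in 17 pairs, so the pair was the 18th in order. Many of the 146 pairs come from a few large clusters and share genes, and either gene of a pair can be undercounted where its hairpin has a near copy. Among the 89 pairs in which neither hairpin shares 22 nt with another, 9 were more unequal and the median ratio was also 3.96.

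The pairs next to it in this order came from varied loci. Just above it were Mir132 and Mir212, known from neurons and cardiac hypertrophy (ratio of means 33.4), Mir411 and Mir329 of the imprinted Dlk1-Dio3 cluster (31.9), and Mir532 and Mir362 on chromosome X (31.4). Just below it were Mir200c and Mir141, known from epithelia (26.2), Mir23a and Mir27a (25.3), and Mir351 and Mir450b on chromosome X (24.4). None of these hairpins shares 22 nt with another.

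The comparison was then limited to the 27 clusters with exactly 2 genes averaging 10 CPM or more, a set added after the data were seen. Genes under that level were ignored, so some of these clusters can hold further genes with few reads. The median ratio was 9.50 and 5 clusters were more unequal than Mir143 and Mir145a. Those 5 were Mir29a and Mir29b-1 (147), Mir99a and Mirlet7c-1 (72.7), Mir30d and Mir30b (59.8), Mirlet7b and Mirlet7c-2 (37.7), and Mir132 and Mir212. In the first, the second and the fourth, a hairpin shares 22 nt with another locus. In 9 of the 27 clusters neither hairpin does, and 2 of these 9 were more unequal. The imbalance of Mir143 and Mir145a was thus large among the clusters that passed the 10 CPM filter, without being the most extreme. This place depends on the filter. Pairs whose lower gene averaged under 10 CPM were left out however unequal they were, and only an abundant higher gene can reach a large ratio.

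Between libraries the imbalance changed less than in most pairs. For the pairs of this set the log2 ratio changed by a median of 0.39 in size between libraries over all 146 pairs and by 0.62 over the 27 clusters, against -0.23 for Mir143 and Mir145a. A smaller change was found in 48 of 146 pairs and in 5 of 27 clusters. The pairs were not matched for depth. Many hold a gene with far fewer reads than Mir145a, and ratios of such genes move more by counting noise alone. The higher gene became the lower in the other library in 13 of 146 pairs, and Mir143 was the higher in both.

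**Figure D3:**
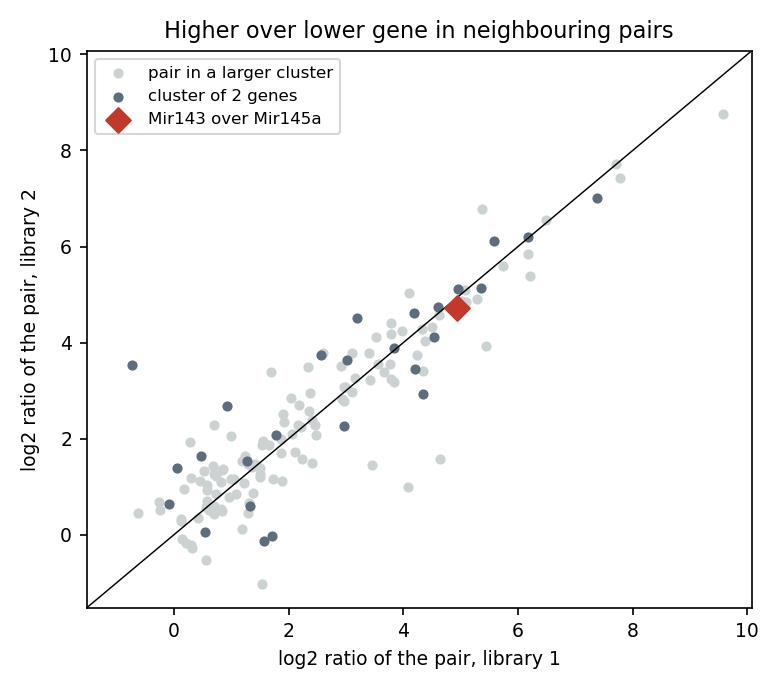
Log2 ratio of the higher to the lower gene (by mean CPM) in library 1 (horizontal axis) and library 2 (vertical axis) for 146 neighbouring pairs. The 27 clusters with exactly 2 genes averaging 10 CPM or more are in dark grey, and the line of equal ratios is in black. Mir143 over Mir145a, the red diamond at 4.94 and 4.71, lies close to the line and toward the upper end.

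Between the libraries neither member passed the criteria of an adjusted p under 0.05 and a difference of 2-fold or more. The log2 ratio of library 2 over library 1, scaled to assigned totals, was -0.04 for Mir143 and 0.19 for Mir145a. In the exact conditional binomial test with Benjamini-Hochberg adjustment over all 344 genes with 10 or more counts summed, the adjusted p was 1.74e-06 for Mir143 and 6.50e-06 for Mir145a. For Mir143 it was 0.307 with both strands counted together and 0.120 without Mir378a, the most abundant gene, in the denominator. The test rests on counting error alone, with reads taken as independent, and sets 1 library against another, as do all calls below. Both criteria were passed by 59 of 344 genes (17.2%), and the adjusted p alone by 186 (54.1%). Among the 69 genes at 1000 CPM or more it was passed by 63 (91.3%), so a small adjusted p at this depth is shared by nearly all abundant genes and sets neither member apart.

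The direction of Mir143 depended on the scaling. The median log2 ratio of tested genes was -0.19, and TMM scaling added 0.19 to every ratio. With it Mir143 stood at 0.15 and Mir145a at 0.38, both higher in library 2, and neither reached 2-fold. With TMM scaling 55 of 344 genes (16.0%) passed both criteria, 8.14% higher in library 2 and 7.85% higher in library 1. Mir145a was the higher in library 2 under either scaling, relative to Mir143 and to the median gene. By size of the difference, 10 of the 141 genes at 100 CPM or more lay closer to equality than Mir143 with assigned totals and 42 with TMM scaling, and for Mir145a 45 and 86.

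**Figure D4:**
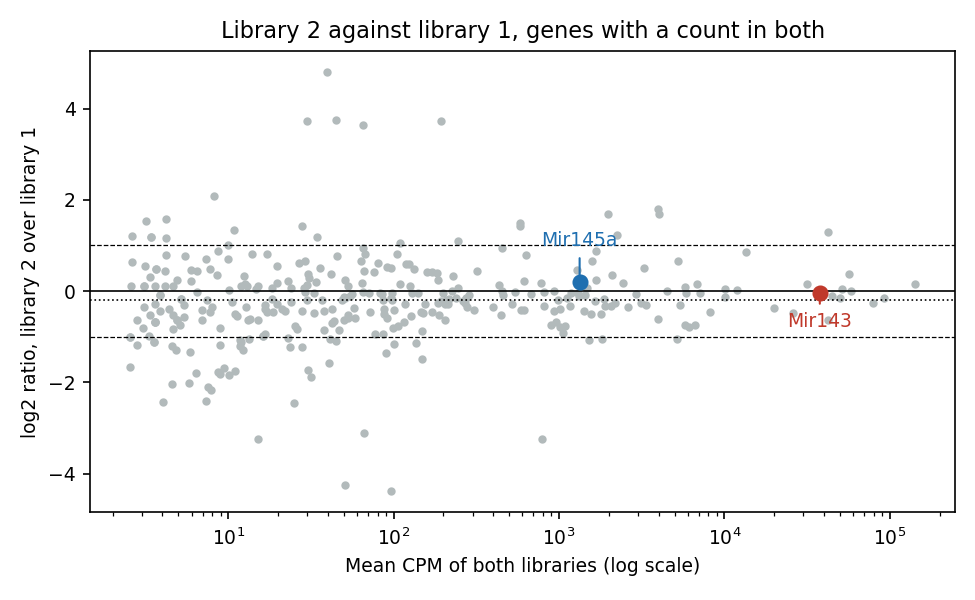
Log2 ratio of library 2 over library 1 (vertical axis) against mean CPM on a log scale (horizontal axis) for tested genes with a count in both libraries, with dashed lines at 2-fold, a solid line at equality and a dotted line at the median of all tested genes, -0.19. Mir143 at -0.04 and Mir145a at 0.19 lie well inside the 2-fold lines.

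The shares of lists named after other heart cells differed between the libraries to varying degrees. Whether the listed genes are particular to those cells was not tested. The pair's share changed by -0.03 on the log2 scale from library 1 to library 2, and TMM scaling adds 0.19 to this and each change below, which turns those of the pair and the leukocyte list. Members whose hairpin has a near copy elsewhere can be undercounted, which would lower the share of their list. Shared stretches of 22 nt were sought on either strand, so hairpins annotated opposite each other can also be marked. Reads of such opposite hairpins are kept apart by strand in the sense counts. Members with a shared stretch were 4 in the cardiac muscle list, 3 each in the erythroid and fibroblast lists, and 2 each in the endothelial and leukocyte lists. How many of these only face an opposite hairpin was not counted. The leukocyte list of 6 genes took 0.689% and 0.678%, a change of -0.02. In it Mir155 (-0.30), Mir142 (-0.41) and Mir223 (-0.17) had negative log2 ratios and Mir342 (0.25) and Mir150 (0.45) positive ones, none past 2-fold. The erythroid list of 4 genes took 0.249% and 0.200% (-0.31), with Mir451a at -0.74, Mir486 at -0.04 and Mir144 at -0.03.

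The endothelial list of 5 genes took 9.75% and 10.9% (0.16), although its median member stood at -0.14. Mir126a, at 48924 and 63819 CPM (0.38), outweighed Mir139 (-0.11), Mir221 (-0.18) and Mir222 (-1.49), of which Mir222 passed both criteria. The cardiac muscle list of 7 genes took 0.856% and 0.670% (-0.35), and its 2 most counted members went opposite ways. All loci of Mir1a and Mir133a in this list share 22 nt with another hairpin, so its share cannot be set beside that of the pair. Mir208a stood at 7004 and 3393 CPM (-1.05) and Mir499 at 1336 and 3141 CPM (1.23), both past the criteria, while Mir208b stood at 151 and 103 CPM (-0.55). With TMM scaling Mir208a no longer reached 2-fold.

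The fibroblast list differed most, with 0.426% and 0.734% (0.79), from Mir21a at 1776 and 6143 CPM against Mir214 at 2471 and 1190 CPM, which moved in opposite directions. Mir199a-1 of the fibroblast list and Mir142b of the leukocyte list had no read in either library, and both share sequence with another locus. The part of other cell types in the levels of Mir143 and Mir145a was not tested.

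A further list held 25 microRNA genes described in the growth or contractile state of smooth muscle cells. All 25 matched the annotation (Mir146a under the symbol Mir146), 14 of them share 22 nt with another hairpin, and 15 averaged at least 100 CPM. Of 20 tested, 3 were higher in library 2 by both criteria (5.52% of all tested genes) and 1 was higher in library 1 (11.6%). Their median log2 ratio was 0.22, against -0.19 over all tested genes. The list overlaps the fibroblast, endothelial, cardiac muscle and leukocyte lists.

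The members that passed both criteria did not all go the same way, and whether they share a role in smooth muscle cells was not tested. Higher in library 2 were Mir21a (log2 ratio 1.79, 3550 and 11442 reads), Mir31 (1.5, 609 and 1606 reads) and Mir26a-2 (3.73, 54 and 675 reads, with a near copy in Mir26a-1). Higher in library 1 was Mir222 (-1.49, 436 and 144 reads), while Mir221 beside it stood at 1997 and 1765 CPM (-0.18) and was not called. With TMM scaling Mir24-1 (1.01), which has a near copy in Mir24-2, was also higher in library 2.

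The other abundant members stayed within 2-fold. Mir23b, at 57868 and 58035 CPM, was the only gene of this list above Mir143. Mir100 stood at 5639 and 5986 CPM, Mir155 at 3689 and 2993, Mir34a at 2683 and 3812, and Mir146a at 1834 and 2345. Mir10a was at 1377 and 1272 CPM, close to Mir145a. The remaining members at 100 CPM or more, Mir24-2, Mir125b-1 and Mir125b-2, share sequence with other loci and stood between 136.5 and 285 CPM in single libraries. The 10 members below 100 CPM included both loci each of Mir1a and Mir133a, whose reads can go uncounted because the loci share sequence.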

How the data were processed

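Short RNAs of mouse heart were counted in 2 libraries, of 5479149 reads (1999362 assigned) and 4893073 reads (1862526 assigned). The deposited tables hold raw counts per microRNA gene that the authors had not normalized, and the text deposited beside them names assembly mm10 and annotation M21. Which aligner and counter were run is not given in the sources used here. Only the sense column was used, and the first 4 rows, which name no gene, were left out: 14.9% and 13.8% of reads were unmapped, 41.5% and 42.9% had several mapping places, and 7.09% and 5.29% fell in no gene. All 2202 identifiers matched GENCODE M21. Hairpins of the M21 transcripts were compared for shared stretches of 22 nt on either strand.

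CPM were computed over assigned sense reads. Libraries were compared with an exact conditional binomial test (SciPy 1.17.1) and Benjamini-Hochberg adjustment (statsmodels 0.14.6) on genes with 10 or more counts summed, called at an adjusted p under 0.05 and 2-fold or more, with 0.5 added to counts for log2 ratios. The test was checked on simulated counts that held planted changes and sampling noise only. That check therefore does not cover the further spread between real libraries. Alternatives used TMM factors (edgeR 4.0.16) and DESeq2 1.42.0 size factors on the same genes. Counts differed beyond sampling noise between the libraries (chi-square 92268, 343 degrees of freedom).

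The genes named are the members, for each its neighbours in rank and its 5 nearest genes, list members at 100 CPM or more, and the 3 neighbouring pairs on either side. Mir22, Mir191, Mir30a, Mir378a, Mir145b, Mir199a-1, Mir142b, the pairs of the clusters of 2, and list members under 100 CPM are outside this rule and were named after their values were seen. Members, lists and tests were chosen with earlier results of these data known.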

Additional observations from a re-analysis of the deposited data

How the results depend on the processing

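Of 57 alternative values, 4 changed sign, all of them for Mir143. The levels scale with the denominator. With both strands counted together, Mir143 stood at 49014 CPM, Mir145a at 1732 CPM and the pair at 5.07% of assigned reads, because reads of genes with an opposite neighbour then leave the total. Per all reads the values were 14077, 498 and 1.46%, and without Mir378a, the most abundant gene, 44078, 1557 and 4.56%. The log2 ratio of library 2 over library 1 for Mir143 turned positive with both strands (0.0097), all reads (0.023), TMM factors (0.15) and DESeq2 size factors (0.15). With no fold threshold Mir143 (-0.038) and Mir145a (0.19) were called. Genes called between libraries numbered 33 with 100 or more counts summed, 105 at 1.5-fold and 186 with no fold threshold, against 59. Neighbouring pairs more unequal than Mir143 and Mir145a numbered 17 of 146 in the main setting. They numbered 27 of 250 within 50 kb and 8 of 45 with both genes at 100 CPM or more. Without shared stretches they were 9 of 89, and in clusters of 2 they were 5 of 27. The counts differ since these settings admit more or fewer pairs. Leaving out a replicate gave 37276 to 38272 CPM for Mir143, 1244 to 1422 CPM for Mir145a and 3.87% to 3.95% for the pair. The log2 ratio of Mir143 to Mir145a was then 4.71 to 4.94. More unequal pairs numbered 18 of 134 without replicate 1 and 19 of 154 without replicate 2. No paired analysis was possible because both libraries belong to 1 group.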
